A study of Homo sapiens with 4 samples.

Results

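Alpha and beta tubulins are the building blocks of microtubules, and 10 of their genes were chosen by name among the 23459 genes of the count tables. They are the alpha tubulins TUBA1A, TUBA1B, TUBA1C and TUBA4A and the beta tubulins TUBB, TUBB2A, TUBB2B, TUBB3, TUBB4B and TUBB6. The rule rests on current gene symbols, was written with earlier results of these data known, and takes in 10 genes that all passed the filter on low counts. RNA-Seq was performed on hTERT RPE-1 cells, a human retinal pigment epithelial line immortalized with telomerase and labelled wild type. All cultures were starved of serum for 48 h in medium with 0.1% fetal bovine serum and then received 200 μM merbarone, which blocks the catalytic cycle of DNA topoisomerase II. The groups are 4 h and 8 h of merbarone, with 2 libraries each. Untreated cells were not analysed here, so every difference below lies between 2 treated times, and time in low serum and time in merbarone cannot be told apart.

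Each library held between 8064450 and 10324697 counts, of which the 10 tubulins took 0.417% and 0.410% at 4 h, against 0.327% and 0.313% at 8 h. Values are normalized counts, that is, counts scaled by TMM to the mean effective library size of 9586677. A log2 fold change is 8 h over 4 h, and a gene was called when the quasi-likelihood test of edgeR gave a Benjamini-Hochberg adjusted p below 0.05 over 12559 tested genes. Of the markers of retinal pigment epithelium, MITF averaged 757 normalized counts at 4 h, against 859 at 8 h, and OTX2 159 and 181, whereas RPE65 averaged 3.16 and 6.06 and TYR and DCT had no count. The epithelial keratin KRT8 averaged 3485 and 3557, its partner KRT18 fell from 3366 to 2370 (log2 fold change of -0.51, adjusted p of 3.7e-05), and EPCAM had no count. The mesenchymal genes VIM and FN1 rose by 0.36 each on the log2 scale, VIM from a mean of 80540 to 103239. Summed marker levels did not overlap between the times. They were 926 to 984 at 4 h, against 1060 to 1139 at 8 h, for 12 retinal pigment epithelium genes, and 6588 to 7114, against 5681 to 6174, for 4 epithelial genes. For 3 mesenchymal genes they were 210834 to 213916, against 265392 to 278121, and for 2 immune genes 523 to 544, against 676 to 724. Of the immune pair the leukocyte marker PTPRC had at most 8 counts and the lysosomal CD68 gave the rest. MITF gave most of the retinal pigment epithelium sum, and none of the 4 tested genes of that list was called. Calls numbered 1 of 2 tested epithelial genes, 2 of 3 mesenchymal genes and 1 of 1 immune gene. When the trend of the values with mean expression was removed, none of the 3 mesenchymal genes was called. Their median log2 fold change then went from 0.36 to 0.13, whereas the epithelial and immune calls held. Lack of overlap is common in these data, since the times stood apart downwards in 34.9% of tested genes and upwards in 34.8%. The part of these marker shifts in the tubulin values was not tested. In bulk samples fewer cells of a type and less RNA per cell cannot be told apart.

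An alpha and a beta tubulin fold with the help of chaperones and join into a stable dimer, and dimers add to the ends of microtubules. Vertebrates express several genes of each class, called isotypes, whose proteins are nearly alike in the folded body and differ mostly in the acidic tail at the C-terminus. Cells also adjust tubulin mRNA to the pool of free dimers. When free tubulin is plentiful, the protein TTC5 binds the start of a tubulin chain as it leaves the ribosome and, through SCAPER and the CCR4-NOT deadenylase, brings about decay of that mRNA.

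The first 30 coding bases of 7 of the genes, TUBA4A and the 6 beta genes, are shown because they encode the stretch that TTC5 reads. They were taken from the GRCh37 genome with GENCODE models, and capitals mark the first 12 bases.
TUBA4A: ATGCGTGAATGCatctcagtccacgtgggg
TUBB: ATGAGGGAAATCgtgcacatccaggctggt
TUBB2A: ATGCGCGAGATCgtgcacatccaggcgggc
TUBB2B: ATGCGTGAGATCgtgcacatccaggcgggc
TUBB3: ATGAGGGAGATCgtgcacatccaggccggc
TUBB4B: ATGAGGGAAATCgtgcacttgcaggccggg
TUBB6: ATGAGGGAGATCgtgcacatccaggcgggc

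In TUBA4A the 30 bases are split by an intron, and in the beta genes they form an unbroken block. The body of the coding sequence was much alike within a class. Over the first 1290 coding bases TUBA1A and TUBA1B shared 97.1%, TUBA1B and TUBA1C shared 98.1%, and TUBB2A and TUBB2B shared 98.2%. TUBB shared between 81.9% and 85.3% with the other beta genes.

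This likeness bears on the counts, because the reads were 75 bases long and only reads with a single place in the genome were kept. A read from a stretch that 2 of the genes share without a difference has no single place and is lost for both.

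The last 75 coding bases before the stop codon hold the acidic tail by which isotypes are told apart. They are shown for TUBB, the beta gene with the highest count, and for TUBB3 and TUBB6, which were not called, and capitals mark what lies beyond coding base 1290.
TUBB: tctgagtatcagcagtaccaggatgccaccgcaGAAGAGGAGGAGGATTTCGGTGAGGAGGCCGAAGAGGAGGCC
TUBB3: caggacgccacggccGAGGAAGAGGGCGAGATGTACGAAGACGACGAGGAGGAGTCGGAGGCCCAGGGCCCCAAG
TUBB6: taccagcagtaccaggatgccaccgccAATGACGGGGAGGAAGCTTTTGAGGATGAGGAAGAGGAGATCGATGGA
The 3 beta tails differ from each other in length and sequence.

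The number of mismatches the aligner allowed is not given in the sources used here, and 2 were assumed. The share of 75-base exon windows with no other place in the genome within 2 mismatches ranged widely among the 10 genes. It was lowest in TUBA1B, at 20.7%, followed by TUBB2A at 24.8%, TUBA1A at 26.7% and TUBB2B at 39.2%. TUBB, with 47.3%, lost windows to processed copies rather than to its family, since 42.1% of its windows also matched the pseudogene TUBBP1 and 19.7% matched TUBBP2. TUBA1C kept 62.6%, TUBB4B 78.0%, TUBB3 84.8%, TUBA4A 87.2% and TUBB6 93.9%. Of the windows of TUBA1A, 54.4% matched TUBA1C and 51.4% matched TUBA1B within that limit. With 0 mismatches allowed 63.9% of the TUBA1A windows had a single place, and with 3 mismatches 15.2%. In addition, between 8.08% and 14.9% of the windows of each transcript cross a splice junction and could not be placed by an aligner without splicing.

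The genes lie in 2 clusters and 5 single places on GRCh37. TUBA1B at chr12:49521565-49525180 and TUBA1A at chr12:49578469-49582863 are on the minus strand, and TUBA1C at chr12:49582519-49668383 is on the plus strand. TUBB2A at chr6:3153731-3157778 and TUBB2B at chr6:3223558-3231964 are on the minus strand. TUBB lies on the same chromosome at chr6:30685212-30693315, plus strand. TUBA4A is at chr2:220114432-220142624, TUBB3 at chr16:89987800-90005169, TUBB4B at chr9:140135739-140138159 and TUBB6 at chr18:12307668-12344319. Overlaps with other genes were taken over the whole span of the other gene, introns included. The gene of the antisense RNA TUBA1B-AS1 spans 1568 exon bases of TUBA1A and 1627 of TUBA1B on the opposite strand. A readthrough gene on the same strand spans 1701 exon bases of TUBB3. Genes of long noncoding RNAs on the opposite strand span 1455 exon bases of TUBA1C and 538 of TUBB. The protein-coding STK16 spans 628 of TUBA4A and FAM166A 124 of TUBB4B, also on the opposite strand. Which of these bases lie in exons of the other genes was not determined. Whether the counting used the strand is not given in the sources used here. Any reads of the other genes in these bases therefore cannot be told apart from those of the tubulins.

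From 4 h to 8 h of merbarone, 6 of the 10 tubulins fell and none rose by the test of edgeR. The fallers were 3 alpha genes, TUBA1A, TUBA1C and TUBA4A, and 3 beta genes, TUBB, TUBB2A and TUBB4B. Among all tested genes 38.8% were called in either direction, 18.8% as lower and 19.9% as higher at 8 h. The median log2 fold change was -0.34 over the 10 tubulins and -0.002 over all tested genes. Over the 2091 genes whose mean count after scaling was at least 1000 it was 0.13. Of the tubulins 7 exceed that level, and TUBB, at -0.26, has the middle value among those 7. No tubulin passed both an adjusted p below 0.05 and a log2 fold change beyond 1, which 5.33% of all genes did. At an unadjusted p below 0.05 there were 7 tubulins, TUBB2B being the only member of that set that was higher at 8 h. DESeq2 called 5 tubulins and Limma-Voom 6, all of them lower and none past both thresholds. In contrast, 1 tubulin, TUBA1A, passed both with scaling by library size alone, with a filter of CPM above 2, and with the trend with mean expression removed.

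**Figure D1:**
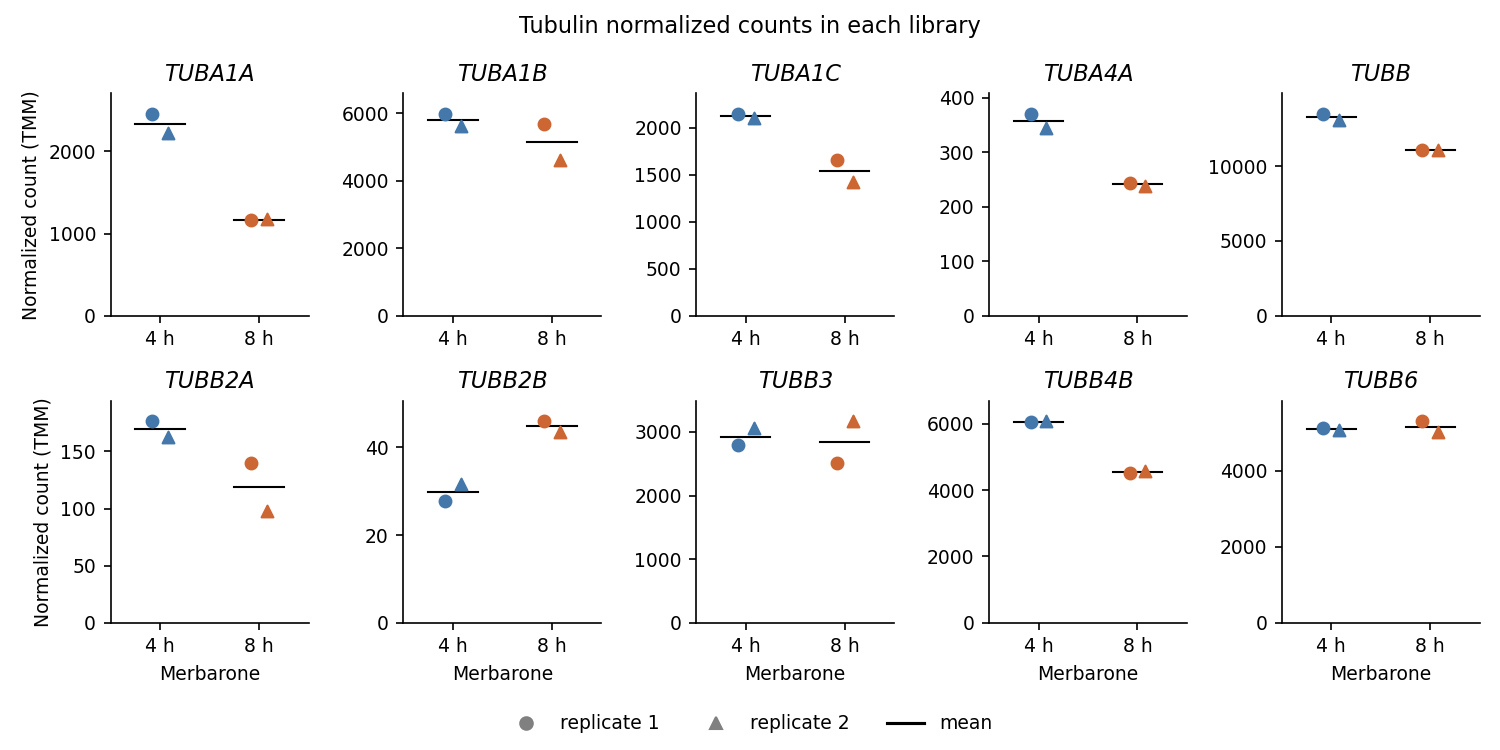
Normalized counts (TMM, vertical axes from 0, each gene on its own scale) of the 10 tubulins after 4 h and 8 h of merbarone. Circles are replicate 1, triangles replicate 2 and bars the mean of 2 libraries. The 8 h libraries lie below the 4 h libraries in 6 genes, above them in TUBB2B, and overlap with them in TUBA1B, TUBB3 and TUBB6.

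TUBA1A, a major alpha isotype of developing neurons, showed the largest fall of the 10 genes. It gave 2459.8 and 2219 normalized counts at 4 h, against 1168 and 1174 at 8 h. The 8 h libraries were almost equal to each other and far below both 4 h libraries. The log2 fold change was -0.998 ± 0.08 (SE), with a 95% interval from -1.17 to -0.83 and an adjusted p of 2.3e-08, which left it just short of the threshold of 1. Its log2 fold change stayed between -1.11 and -0.93 in the 12 other settings tried.

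TUBA1B, the alpha isotype found in nearly every cell, gave 5991 and 5629.8 at 4 h, against 5695 and 4603 at 8 h. The first 8 h library lay inside the range of the 4 h libraries and the second lay below it, so the groups overlapped. Its log2 fold change was -0.17 ± 0.09 (SE), with a 95% interval from -0.35 to 0.01 and an adjusted p of 0.117 by edgeR. Without the first 8 h library the fall was -0.34 with an adjusted p of 0.000195, and without the second it was -0.03 with an adjusted p of 0.798, so that both the size and the call rest on which 8 h library is used. Scaling by library size alone gave -0.28 with an adjusted p of 0.0144, and removal of the trend with mean expression gave -0.33 with 0.0055. TUBA1B was called in 4 of 13 settings.

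TUBA1C, their neighbour on chromosome 12, gave 2147 and 2102 at 4 h, against 1654 and 1419 at 8 h. Both 8 h libraries were below both 4 h libraries. The log2 fold change was -0.47 ± 0.08 (SE) with an adjusted p of 0.000231. TUBA4A, an alpha isotype whose gene does not encode the terminal tyrosine, fell from 371 and 344 to 243 and 239. Again the times did not overlap, and the log2 fold change was -0.57 ± 0.12 (SE) with an adjusted p of 0.00101. Both genes kept their call in each of the 12 other settings.

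TUBA1A and TUBA1B share 97.1% of the coding bases compared, so the regions upstream of them are shown beside their unlike values. These are the RefSeq promoters of GRCh38.p14, from 250 bases before to 50 after the start of transcription, on the minus strand at chr12:49189031-49189330 for TUBA1A and chr12:49131346-49131645 for TUBA1B. Capitals mark CCAAT and GGGCGG on either strand, the letters bound by NF-Y and by SP1.
TUBA1A: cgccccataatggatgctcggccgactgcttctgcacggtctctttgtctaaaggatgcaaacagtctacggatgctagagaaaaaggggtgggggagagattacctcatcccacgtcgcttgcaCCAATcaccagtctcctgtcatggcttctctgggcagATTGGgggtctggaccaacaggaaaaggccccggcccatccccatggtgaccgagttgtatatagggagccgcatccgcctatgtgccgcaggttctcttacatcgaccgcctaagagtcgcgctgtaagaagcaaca
TUBA1B: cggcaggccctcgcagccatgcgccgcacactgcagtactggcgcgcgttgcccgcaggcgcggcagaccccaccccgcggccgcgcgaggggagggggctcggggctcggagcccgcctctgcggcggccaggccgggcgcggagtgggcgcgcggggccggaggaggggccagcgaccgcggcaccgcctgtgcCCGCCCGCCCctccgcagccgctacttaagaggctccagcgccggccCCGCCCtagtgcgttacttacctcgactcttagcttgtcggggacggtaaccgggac
The TUBA1A window held 2 copies of CCAAT and none of GGGCGG, and the TUBA1B window held none of CCAAT and 3 matches of GGGCGG, 2 of which overlap. Their GC contents were 55.7% and 77.0%. The 10 tubulins had 15 promoters, of which 9 held CCAAT, 9 held GGGCGG and 1, that of TUBB2A, held TATAAA. By gene, 7 had CCAAT and 8 had GGGCGG in at least 1 of their promoters. Of 35116 promoters of the same length, 34.6% held CCAAT, 45.0% held GGGCGG and 11.5% held TATAAA. These shares are per promoter, and no share by gene was taken to set beside the counts by gene. Among the 15 promoters, 2 of TUBA1C overlap and hold the same copy of CCAAT. The matches describe letters in these windows and are not binding sites shown by data.

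TUBB, also called TUBB5 and the chief beta isotype of most cells, had the highest normalized count of the family. It gave 13510.3 and 13111 at 4 h, against 11099.7 and 11073 at 8 h. The 4 values form a close upper pair and a close lower pair. The log2 fold change was -0.26 ± 0.07 (SE), with a 95% interval from -0.40 to -0.13 and an adjusted p of 0.00331. When the first 4 h library was left out the fall was -0.25 and the adjusted p 0.0647.

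TUBB4B, the beta isotype prominent in ciliated and many other cells, gave 6044 and 6090.3 at 4 h, against 4506 and 4574 at 8 h. Replicates lay close together, and the times stood well apart. The log2 fold change was -0.42 ± 0.07 (SE) with an adjusted p of 9.8e-05, and the call held in each of the 12 other settings.

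TUBB6, a beta isotype of many non-neural tissues, gave 5116 and 5077 at 4 h, against 5306 and 4999.8 at 8 h. The 8 h libraries lay on either side of the 4 h libraries. Its log2 fold change was 0.02 ± 0.07 (SE) with a 95% interval from -0.13 to 0.16 and an adjusted p of 0.877, and the sign turned to -0.090 with scaling by library size alone and to -0.14 with the trend removed. TUBB3, a beta isotype best known from neurons, gave 2788 and 3058 at 4 h, against 2517 and 3175 at 8 h. Here the 8 h libraries enclosed both 4 h libraries, with a log2 fold change of -0.04 ± 0.09 (SE), a 95% interval from -0.23 to 0.15 and an adjusted p of 0.760. Without the first 8 h library it was 0.12, and without the second it was -0.22 with an adjusted p of 0.0339. Of 9 neuron markers, RBFOX3, NEFL, ELAVL4 and DCX had no count in any library. SYP had 19 and 26 raw counts at 4 h, against 17 and 14 at 8 h, and SNAP25 had 49 and 34, against 18 and 22, with adjusted p of 0.674 and 0.0888. The summed normalized count of the 9 markers was 54.4 to 68.2 at 4 h, against 36.8 to 48.5 at 8 h.

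The nearly identical pair TUBB2A and TUBB2B had few counts and opposite signs. TUBB2A gave 177 and 162 at 4 h, against 140.1 and 98.2 at 8 h, with both 8 h libraries below both 4 h libraries. The log2 fold change was -0.50 ± 0.18 (SE) with an adjusted p of 0.0353. This call was lost at a similar log2 fold change without the first 4 h library (-0.44, adjusted p of 0.190), without the second (-0.56, 0.0931), with DESeq2 (-0.50, 0.127) and with the trend removed (-0.39, 0.0979). The size rests on the 8 h libraries, since it was -0.27 with an adjusted p of 0.264 without the second and -0.79 with 0.00178 without the first. TUBB2B gave 27.8 and 31.7 at 4 h, against 46.0 and 43.5 at 8 h, from 31, 35, 45 and 35 raw counts. The normalized values did not overlap, and the log2 fold change of 0.59 ± 0.28 (SE) had an adjusted p of 0.101. As 72.6% of TUBB2A windows also match TUBB2B, both values come from the part of each transcript in which the genes differ.

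**Figure D2:**
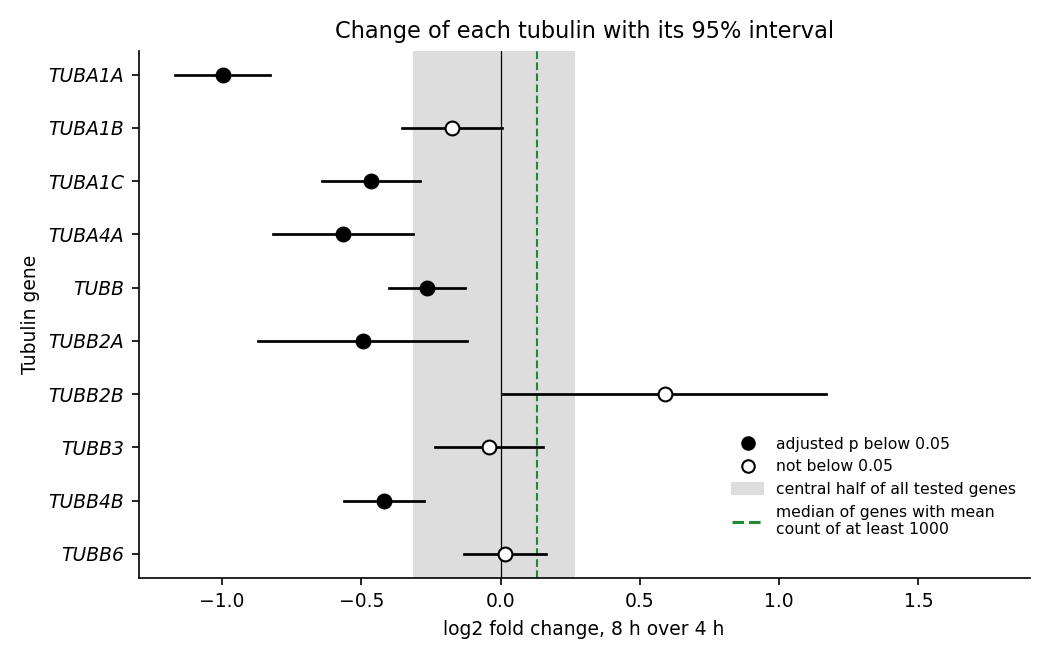
Log2 fold change of 8 h over 4 h (horizontal axis) of each tubulin with its 95% interval from edgeR. Filled points have an adjusted p below 0.05, the grey band is the interquartile range of all tested genes, and the dashed line at 0.13 is the median of genes with a mean count of at least 1000. TUBA1A lies farthest to the left at -0.998, and TUBB2B has the widest interval.

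Both 8 h libraries were below both 4 h libraries in 6 tubulins, where 34.9% of all tested genes had that order, and above them in 1, where 34.8% did. With 2 libraries against 2 an exact permutation test cannot give a two-sided p below 0.333, so sums and ratios over members are described without a test. The summed alpha counts were 10968.9 and 10295 at 4 h, against 8760 and 7435 at 8 h, so that the mean fell by 23.8%. The summed beta counts were 27663 and 27529.6 at 4 h, against 23615 and 23963 at 8 h, so that the mean fell by 13.8%. Neither class overlapped between the times. The ratio of alpha to beta counts was 0.397 and 0.374 at 4 h, against 0.371 and 0.310 at 8 h, and this ratio rests on the second 8 h library for most of its distance, since without it the log2 ratio of 8 h to 4 h went from -0.18 to -0.05.

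Within the alpha class the share of TUBA1A in the counts fell and that of TUBA1B grew. TUBA1B itself did not rise, with a mean of 5810 normalized counts at 4 h, against 5149 at 8 h. These shares come from counts over unequal lengths. TUBA1A made up 22.4% and 21.6% of the alpha counts at 4 h, against 13.3% and 15.8% at 8 h. TUBA1B made up 54.6% and 54.7% at 4 h, against 65.0% and 61.9% at 8 h. The count ratio of TUBA1A to TUBA1B, which needs no scaling between libraries, was 0.411 and 0.394 at 4 h, against 0.205 and 0.255 at 8 h. The ratio of TUBA1A to TUBA1C fell as well in the values, from 1.15 and 1.06 to 0.706 and 0.827, whereas TUBA1C made up 19.6% and 20.4% of the class at 4 h, against 18.9% and 19.1% at 8 h.

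In the beta class TUBB made up 48.8% and 47.6% at 4 h, against 47.0% and 46.2% at 8 h, with both 8 h values below both 4 h values. TUBB4B took 21.8% and 22.1% at 4 h, against 19.1% in each 8 h library, and TUBB6 took 18.5% and 18.4% at 4 h, against 22.5% and 20.9% at 8 h. The count ratio of TUBB6 to TUBB4B was 0.846 and 0.834 at 4 h, against 1.18 and 1.09 at 8 h. These are counts from unequal lengths, and per kilobase of single-position windows, the scale used below, TUBB4B was above TUBB6 at both times, with means of 641 and 358 at 4 h, against 479 and 361 at 8 h. TUBB3 held 10.1% and 11.1% at 4 h, against 10.7% and 13.2% at 8 h, which overlap. TUBB2A over TUBB2B went from 6.35 and 5.11 to 3.04 and 2.26, on the few counts given above.

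**Figure D3:**
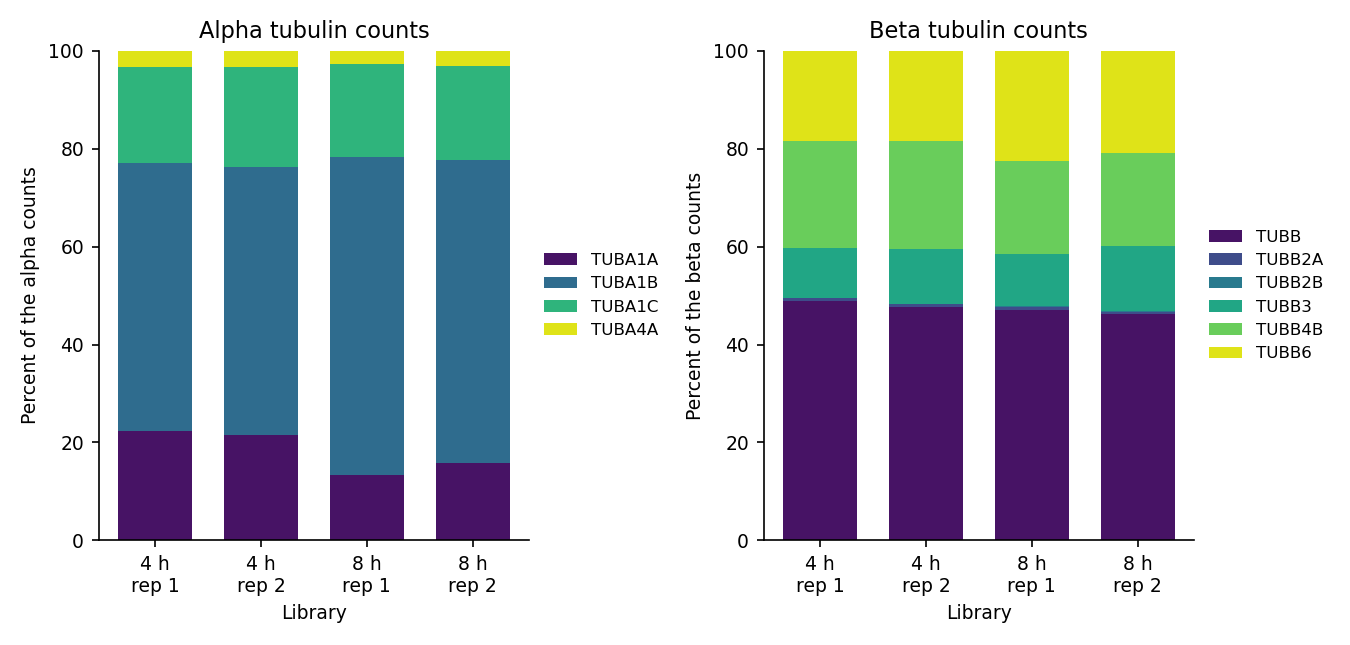
Share of each isotype in the alpha counts (left) and in the beta counts (right) of each library, in percent, with bars adding to 100. TUBA1A falls from 22.4% and 21.6% at 4 h to 13.3% and 15.8% at 8 h, and TUBB6 moves from 18.5% and 18.4% to 22.5% and 20.9%.

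To compare levels between genes, normalized CPM values were divided by the kilobases of single-position windows, within the assumed 2 mismatches. On this scale TUBA1B was highest, at 2264 and 2128 per kilobase at 4 h, against 2152 and 1739.8 at 8 h. TUBB came next, at 1343 and 1304 at 4 h, against 1104 and 1101 at 8 h. TUBA1A at 697 and 629 and TUBB4B at 638 and 643 overlapped at 4 h and could not be ordered on this scale. At 8 h TUBA1A, at 331 and 333, was below TUBB4B, at 476 and 483, and below TUBB6, at 372 and 351. TUBB6, TUBB3 and TUBA1C followed at 4 h with means of 358, 255 and 140.2 per kilobase, each apart from its neighbours. TUBB2A with 54.1, TUBA4A with 24.2 and TUBB2B with 4.87 were lowest at 4 h, and the same 3 genes were lowest at 8 h.

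The order depends on the length used. TUBA1A moved most, with a mean at 4 h of 278 per kilobase with 0 mismatches, 436 with 1 and 1168 with 3, against 535, 590 and 719 for TUBB4B. At 8 h it was below TUBB4B and TUBB6 with 0, 1 or 2 mismatches, but with 3 it was above both, at 584, against 538 and 380. Per kilobase of the whole MANE transcript, without regard to lost windows, TUBB was first at 4 h with 552 ± 11.7 (SD, n = 2), TUBB4B second with 405 ± 2.19 and TUBA1B next with 373 ± 16.4. TUBA1B led whenever single-position windows were counted, with 0, 1, 2 or 3 mismatches allowed. The alpha to beta ratio of summed levels at 4 h was 1.15 per kilobase of windows within 2 mismatches and 0.430 per kilobase of transcript. Since a gene's windows are the same in every library, its fold change does not depend on this choice.

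**Figure D4:**
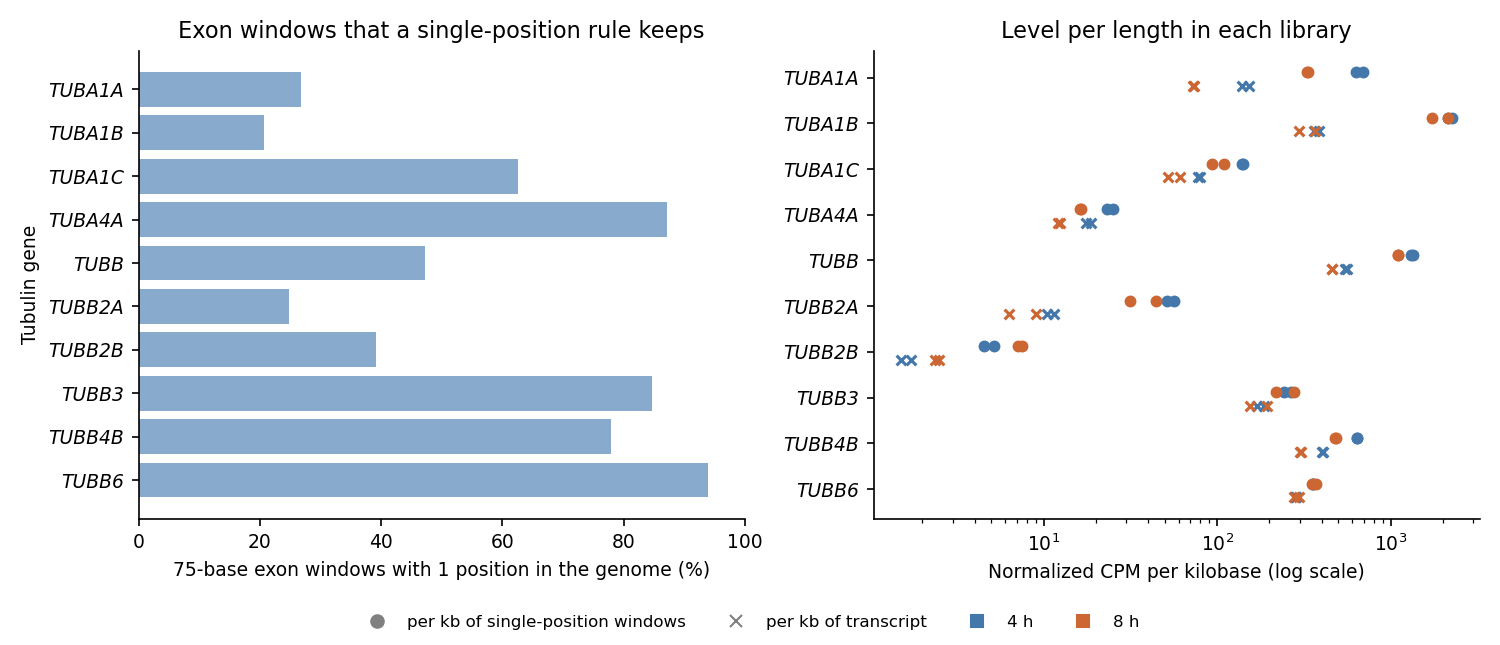
Left, percent of 75-base exon windows of each tubulin with a single place in the genome within 2 mismatches. Right, normalized CPM per kilobase (log axis) in each library, with circles per kilobase of single-position windows and crosses per kilobase of transcript, blue for 4 h and orange for 8 h. The gap between circle and cross is wide for TUBA1A, TUBA1B and TUBB2A, which keep 26.7%, 20.7% and 24.8% of windows, and narrow for TUBB6, which keeps 93.9%.

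The genes whose 4 library values were most like those of TUBB, by the root mean square difference of centred log2-CPM among 2082 genes with a mean count of at least 1000, were NUDCD3 (0.0074), FGD5-AS1 (0.012) and NOLC1 (0.013). NUDCD3 encodes a chaperone partner that stabilizes dynein intermediate chain, FGD5-AS1 is a long noncoding RNA and NOLC1 is a nucleolar phosphoprotein. Their log2 fold changes were -0.27, -0.28 and -0.26. With 4 libraries such likeness is a description of these values alone.

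Of the 15 other tubulin genes listed, 8 had no count in any library, among them TUBA3C, TUBB1 and TUBB8, and 5 passed the filter. TUBG1, the gamma tubulin that nucleates microtubules, fell from 498 and 488 to 335 and 357, a log2 fold change of -0.51 ± 0.11 (SE) with an adjusted p of 0.000809. TUBE1, the epsilon tubulin of centrioles, rose from 258 and 209 to 406 and 359, by 0.71 ± 0.13 (SE) with an adjusted p of 0.000257. The pseudogene TUBA3FP fell as well, from 52.0 and 53.5 to 24.5 and 23.6, with an adjusted p of 0.00353.

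Counts in the lists that follow are to be read against all tested genes, of which 19.9% rose and 18.8% fell. Calls over all genes also moved with the setting. They numbered 4867 in the main test, 3303 with DESeq2 and 5493 with the replicate block, and were fewer than in the main test without either 4 h library. In the gamma-tubulin ring complex, the template for new microtubules, 2 of 11 tested genes rose and 4 fell, with a median log2 fold change of 0.0003. The ring components TUBGCP5 (-1.08 ± 0.17 SE, adjusted p of 4.3e-05) and TUBGCP3 (-0.81 ± 0.13 SE, adjusted p of 8.5e-05) fell with TUBG1. The small subunits MZT2A and MZT2B rose by 0.90 and 0.92, the latter by 0.61 without the second 8 h library, and as a closely similar gene pair their separate counts are uncertain.

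Folding of tubulin runs through prefoldin, the CCT chaperonin and the tubulin cofactors. In CCT, the ring that folds tubulin and actin, 5 of 8 subunits fell and none rose, where 18.8% of all tested genes fell, with a median of -0.28. The replicate block called 2 subunits higher and leaving out either 8 h library 1, with 5 falls each time, and falls numbered 4 and 3 without the first and the second 4 h library. CCT6A fell from 1724 and 1676 to 1332 and 1282, a log2 fold change of -0.38 ± 0.08 (SE) with an adjusted p of 0.000841, and CCT2 and CCT5 fell by 0.32 and 0.31 on the log2 scale. CCT4 and CCT7 had values of 0.18 each, with adjusted p of 0.0844 and 0.0628, so the 8 subunits of the ring did not share a sign. In prefoldin, which hands new chains to CCT, 2 of 6 genes rose and 1 fell. PFDN2 rose from 514 and 538 to 1110 and 995, a log2 fold change of 1.00 ± 0.09 (SE) with an adjusted p of 1.1e-07. PFDN5 rose by 0.25 and PFDN6 fell by 0.50 on the log2 scale. PFDN5 was called in 10 of 13 settings and lost its call without the first 4 h library (0.15, adjusted p of 0.310). PFDN6 was called in 9 of 13, from -0.75 without the first 8 h library to -0.30, with an adjusted p of 0.178, without the second, and it lost its call also without the second 4 h library (-0.39, 0.208). Among 7 cofactor genes only ARL2, the small GTPase that works with the cofactors in assembling dimers, was called, with a log2 fold change of 0.24 and an adjusted p of 0.0368. It was called in 7 of 13 settings, and not by DESeq2 (adjusted p of 0.122) or without either 4 h library or the second 8 h library (0.0890 to 0.265).

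Of the 12 genes of mRNA autoregulation, 1 rose and 3 fell, with 38.8% of all tested genes called in either direction. The numbers of rises and falls moved with the library left out, as did calls over all genes. The median log2 fold change of the list was -0.08, and between -0.10 and -0.03 when single libraries were left out. The replicate block gave 3 rises and 3 falls. TTC5 itself gave 149 and 149.6 at 4 h, against 129.9 and 147 at 8 h, with a log2 fold change of -0.11 ± 0.16 (SE) and an adjusted p of 0.608. SCAPER, the adaptor to the deadenylase, fell from 136 and 173 to 99.2 and 89.5, a log2 fold change of -0.71 ± 0.18 (SE) with an adjusted p of 0.0048. Without the second 4 h library it was -0.53 with an adjusted p of 0.115. The CCR4-NOT subunits CNOT10 and CNOT11, which form a module of that complex, fell by 0.75 and 0.33 on the log2 scale, and CNOT3 rose by 0.35. CNOT11 was called in 9 of 13 settings, and not by DESeq2 (adjusted p of 0.128), without either 4 h library (0.193 and 0.0741) or without the first 8 h library (0.186). CNOT3 was called in 10 of 13, and not without either 4 h library (0.0738 and 0.0739).

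Among 17 enzymes that modify tubulin, 1 rose and 6 fell, a share near the 38.8% called among all tested genes. Falls numbered 4 with DESeq2 and without either 4 h library, and rises 2 without the first 8 h library and with the replicate block. TTL, which restores the terminal tyrosine of alpha tubulin, gave 1617 and 1610.1 at 4 h, against 1714 and 1638 at 8 h, with a log2 fold change of 0.06 ± 0.08 (SE) and an adjusted p of 0.604. VASH1, which removes that tyrosine, fell from 155 and 137 to 100.2 and 91.9, with an adjusted p of 0.0117, and was not called without the first 4 h library (0.120) or by DESeq2 (0.0666). The glutamylase TTLL7 fell by 1.07 on the log2 scale and the glycylase TTLL3, which shares exons with a readthrough gene, by 0.95. The deacetylase SIRT2 rose by 0.26 with an adjusted p of 0.0466, and was called in 5 of 13 settings, not without either 4 h library or the second 8 h library (0.154 to 0.220).

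Of 9 tested genes for sequestering and severing, none rose and 3 fell, with 38.8% of all tested genes called and 18.8% lower. STMN1, stathmin, which binds free tubulin dimers, fell from 5399 and 4827 to 4139 and 3747, a log2 fold change of -0.37 ± 0.08 (SE) with an adjusted p of 0.000856. FIGNL1, of the fidgetin family of severing enzymes but best known from DNA repair by recombination, fell by 1.197 on the log2 scale, and MCRS1, a protein of spindle minus ends, by 0.45.

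Of 14 tested interphase MAPs 5 rose and 2 fell, and of 16 plus-end proteins 7 rose and 2 fell, where 19.9% of all tested genes rose and 18.8% fell. Under library size alone the counts were 4 rises and 3 falls, and 6 rises and 5 falls, and falls numbered 1 in the interphase MAPs whichever library was left out and 1 in the plus-end proteins without either 4 h library. MAP2 went from 392 and 402 to 792 and 673, a log2 fold change of 0.89 ± 0.10 (SE) with an adjusted p of 2.2e-06. MAP1S and MAP1A rose by 0.73 and 0.64, while MAP7D3 and MAP7D1, which recruit kinesin, fell by 0.42 and 0.31. MAP1S was at 0.42 without the second 8 h library. MAP7D3 lost its call without the first 4 h library (adjusted p of 0.152), without the second 8 h library (0.0519) and with DESeq2 (0.0677), and MAP7D1 without the second 4 h library (0.170) and without the first 8 h library (0.112), at which it was -0.18. CLIP3, CLIP4 and CLASP1 rose by 0.62, 0.61 and 0.53. CLIP3 is a CAP-Gly protein known from the trans-Golgi rather than from plus ends. PAFAH1B1, or LIS1, the dynein regulator, fell from 1522 and 1537 to 912 and 819, a log2 fold change of -0.82 ± 0.08 (SE) with an adjusted p of 4.4e-07, and the polymerase CKAP5 fell by 0.26, a call lost without either 4 h library (0.0599 and 0.0987).

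Directions in these lists were checked under the other scalings. Scaling by library size alone, which moved the median of all genes to -0.11, gave 1698 higher and 3289 lower genes in place of 2500 and 2367. With it 7 tubulins fell and none rose, and CCT had 5 falls. Rises then numbered 0 in the autoregulation list, against 3 falls, 0 in the modification list, against 6 falls, and 0 in the cofactors, against 1 fall. Prefoldin had 1 rise and 2 falls, and sequestering and severing 5 falls. With the trend removed the tubulins had 6 falls and 1 rise, that of TUBB2B, CCT had 5 falls and the plus-end proteins 7 rises and 4 falls.

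**Figure D5:**
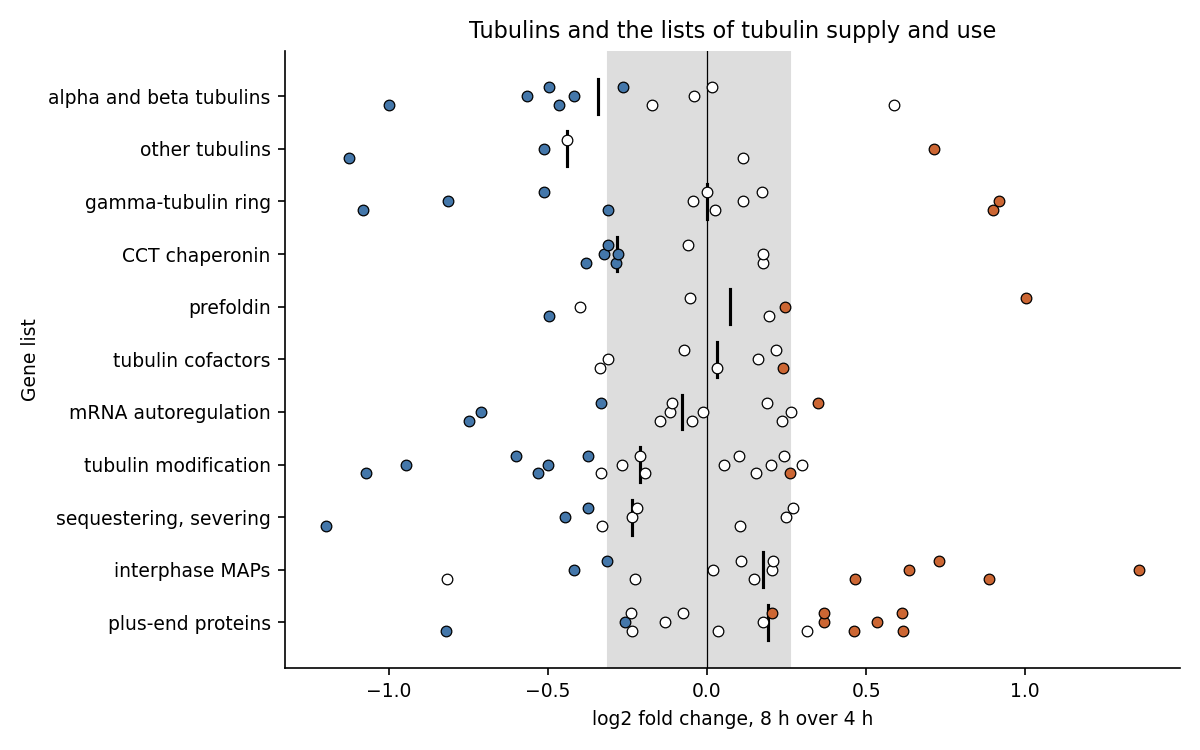
Log2 fold change of 8 h over 4 h (horizontal axis) of each tested gene in the tubulins and in 10 lists of tubulin supply and use. Filled points have an adjusted p below 0.05, blue for lower and orange for higher at 8 h, black bars are list medians, and the grey band is the interquartile range of all tested genes. Tubulins, CCT and the genes for sequestering and severing have filled points on the left only, and the plus-end proteins have 7 on the right and 2 on the left. TUBG1 and TUBG2 appear both among the other tubulins and in the gamma-tubulin ring.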

How the data were processed

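RNA-Seq counts per gene of 4 libraries were used, 2 at 4 h and 2 at 8 h of merbarone, grouped by the sample labels. The authors mapped 75-base single reads to hg19 with Bowtie 1.2.0, retained reads with a single position (option -m 1), and deposited raw counts by NCBI Gene identifier, without normalization or pooling. The counting tool, its annotation and its use of strand are not given in the sources used here. Symbols from the RefSeq gene table matched 23308 of 23459 identifiers.

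Genes with CPM above 1 in at least 2 libraries (12559) were retained, normalized by TMM and fitted with time as the only term by the quasi-likelihood test of edgeR 4.0.16 (R 4.3.3, limma 3.58.1, Python 3.11.15), with Benjamini-Hochberg adjustment over all of them. The standard error is the log2 fold change over the square root of F, and the 95% interval uses the total degrees of freedom. The biological coefficient of variation was 6.52%. Each p-value sets the difference between the times against the spread between these libraries, with the spread of a gene moderated by that of all tested genes. The test was tried on simulated counts with known changes in far fewer genes than were called here. How the test behaves with as many changes as here was not tried.

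The tubulins, the gene lists, the tests and the rule for named genes were chosen with earlier results of these data known. The rule names all tubulins and, in each list, up to 3 called genes in each direction with the largest log2 fold change and a mean of 100 or more normalized counts at the higher time, plus TTC5, SCAPER, TTL, STMN1 and TUBG1. TUBA3FP, CCT4, CCT7 and single cell type markers were named after their values were seen. Exon windows of 75 bases from the MANE transcript were searched in GRCh37 for other positions within 2 mismatches, an assumed limit. Alternatives were library size alone, RLE size factors, DESeq2 1.42.0, Limma-Voom, other low count filters, removal of a loess trend with mean log2-CPM, the replicate block, leaving out each library and, chosen after seeing the data, the MANE transcript length. Coding sequences of some alpha tubulins are not reported here.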

Additional observations from a re-analysis of the deposited data

How the results depend on the processing

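Of the 10 tubulins, TUBA1A, TUBA1C, TUBA4A and TUBB4B kept direction and call in all 12 other settings. The number of tubulins called, 6, became 5 with DESeq2 and 7 with library size alone, with the trend removed and with the replicate block, and ranged from 4 to 7 when each library was left out. The number passing both thresholds went from 0 to 1, always TUBA1A near its threshold, with library size alone, with CPM above 2 and with the trend removed, and ranged from 0 to 1 over the left-out libraries. Calls over all genes, 4867, ranged from 3114 to 4828 over the left-out libraries and were lowest without the first or second 4 h library (3141 without the second). The cause was not tested. TUBB6 changed sign to -0.090 with library size alone and to -0.14 with the trend removed, and ranged from -0.028 to 0.058 over the left-out libraries. TUBB3 ranged from -0.22 to 0.12 and was 0.03 without the second 4 h library. The log2 ratio of the beta total moved from -0.21 to -0.32 with library size alone. The ratio of alpha to beta levels per kilobase at 4 h moved from 1.15 to 0.762 with 0 mismatches, 0.968 with 1, 1.40 with 3, 0.351 per all exon length and 0.430 per MANE transcript.

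Libraries share replicate numbers in the labels, and the deviations of same-numbered libraries correlated at 0.05. With 2 libraries at each time, this value cannot tell whether same-numbered libraries shared more than a number. The replicate block gave 7 tubulins called, all lower, TUBA1B being added at -0.18 with an adjusted p of 0.0277, and 5493 calls over all genes. Depth limits TUBB2B, with 31 to 45 counts, and TUBB2A among the tubulins.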
